A study of Mus musculus with 28 samples.

Results

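The complement system was followed here through 9 genes read in all 28 libraries of mouse macrophages, grown in culture from bone marrow cells (bone marrow derived macrophages). The genes were taken from a list of complement components and receptors: C1qa, C1qb, C1qc, C3, C4b, C3ar1, C5ar1, Cfb and Serping1. They were listed by name, with earlier results of these data known. All 9 were found among the 55487 gene IDs of the files, which pair Ensembl mouse gene IDs with a TPM value, the share of a gene among all transcripts scaled to a fixed total. TPM is already divided by transcript length, so levels may be set side by side between genes.

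All macrophages were wild-type, and the study compared what they expressed after uptake of dying T cells under different cytokines. Per the series' design text, conventional CD4 T cells (Tconv) or regulatory T cells (Treg) were driven into apoptosis with ATP/NAD, stained with a fluorescent CD4 antibody (BV421 or Ax647) and added to the macrophages, which were then sorted by what they had engulfed. The 7 groups of 4 libraries were M0, kept without polarizing cytokine, and, with IFN-γ or with IL-10 at 50 ng/mL for 48 h, the non-phagocytic, the Tconv-phagocytic and the Treg-phagocytic macrophages. The design text describes co-culture without cytokine too, but the M0 labels name no T cells and no uptake status, so in comparisons with M0 the cytokine, the co-culture and the sort cannot be told apart. Every sample is bulk RNA, in which fewer cells of a type and less RNA per cell cannot be told apart. The labels do not say whether replicates came from separate animals or cultures, so p-values measure only the spread between these libraries, which may be technical.

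Complement is a protein cascade that tags particles for removal. C1q, a hexamer of trimers built from the A, B and C chains encoded by C1qa, C1qb and C1qc, recognises antibody complexes and dying cells and starts the classical pathway, which cuts C4 (C4b) and then C3, while factor B (Cfb) drives the alternative pathway on surfaces that carry C3 fragments. C3 and C5 fragments are read by the receptors C3ar1 and C5ar1, and Serping1, the C1 inhibitor, restrains the first enzymes of the classical pathway. Macrophages are a main source of C1q in tissues, whereas most plasma complement is made by the liver.

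The libraries differed in depth by cytokine. The files hold no read counts, but the step between low TPM values gives each library's depth relative to the deepest, which was 68.7% or more in M0, 48.9% to 90.2% under IL-10 and 11.2% to 24.2% under IFN-γ. The 10 macrophage markers summed to between 26331 and 32801 TPM in every library. Of the 3 hepatocyte markers, Alb and Ttr were at 0 in every library. Apoa1 was at 0 in every IL-10 library and reached 0.16 TPM in M0 and 1.3 TPM under IFN-γ. T cell markers (12 genes) summed to 192 to 288 TPM in M0 and to between 168 and 303 TPM under IL-10. Under IFN-γ the sums were 542 to 892 TPM in non-phagocytic, 640 to 806 TPM in Tconv-phagocytic and 632 to 976 TPM in Treg-phagocytic macrophages. Of the T cell list, Il7r alone averaged 159 TPM in M0, 96.5 TPM in IL-10 non-phagocytic and 96 TPM in IFN-γ non-phagocytic macrophages. Stromal markers (10 genes) summed to 136 to 155 TPM in M0, to between 32.6 and 186 TPM under IL-10 and to between 3.78 and 14.1 TPM under IFN-γ. Treg markers (4 genes) summed to 29.8 to 50.9 TPM in non-phagocytic, 31.3 to 44.45 TPM in Tconv-phagocytic and 26.35 to 43 TPM in Treg-phagocytic IFN-γ macrophages. These ranges overlapped. Under IL-10 the same sums were 5.25 to 6.94, 6.64 to 8.15 and 9.09 to 13.75 TPM. The part of these T cell, Treg and stromal transcripts in the results on complement was not tested.

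The 3 C1q genes lie side by side on chromosome 4 and the rest are spread over 4 other chromosomes. On the GRCm38 build (GENCODE vM21 annotation), C1qb (ENSMUSG00000036905) spans chr4:136880129-136886187, C1qc (ENSMUSG00000036896) spans chr4:136889804-136893065 and C1qa (ENSMUSG00000036887) spans chr4:136895917-136898803, all on the minus strand, within 18.7 kb. C4b (ENSMUSG00000073418, chr17:34728380-34743882) and Cfb (ENSMUSG00000090231, chr17:34856374-34862518) stand 112 kb apart, and C3 (ENSMUSG00000024164, chr17:57203970-57228136) is on the same chromosome. C3ar1 (ENSMUSG00000040552) is at chr6:122847138-122856161, C5ar1 (ENSMUSG00000049130) at chr7:16246743-16259540 and Serping1 (ENSMUSG00000023224) at chr2:84765387-84775444. These are spans of whole genes, exons and introns together, since TPM was deposited per gene.

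Promoter sequence was in the RefSeq table (GRCm38.p6) for 5 of the 9 genes. The 250 bases before the start are shown for the C1q pair that rose together under IL-10 and for C3, which was highest under IFN-γ. Each is printed 5′ to 3′ on the gene's own strand (minus), and capitals mark matches, on either strand, to the letters GAGGAA (core of the PU.1 site, a myeloid factor) or TTNNGNAA (C/EBP type). The windows, counted from the RefSeq start, are chr4:136886201-136886450 for C1qb, chr4:136892915-136893164 for C1qc and chr17:57228137-57228386 for C3.
C1qb: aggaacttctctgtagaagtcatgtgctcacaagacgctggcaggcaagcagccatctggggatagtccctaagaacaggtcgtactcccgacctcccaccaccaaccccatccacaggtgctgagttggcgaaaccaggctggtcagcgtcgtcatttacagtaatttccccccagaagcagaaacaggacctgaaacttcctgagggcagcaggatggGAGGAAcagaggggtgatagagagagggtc
C1qc: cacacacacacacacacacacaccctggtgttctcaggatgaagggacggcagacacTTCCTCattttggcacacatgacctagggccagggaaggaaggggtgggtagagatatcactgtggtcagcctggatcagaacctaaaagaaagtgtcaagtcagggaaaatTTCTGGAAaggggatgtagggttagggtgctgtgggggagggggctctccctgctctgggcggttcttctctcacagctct
C3: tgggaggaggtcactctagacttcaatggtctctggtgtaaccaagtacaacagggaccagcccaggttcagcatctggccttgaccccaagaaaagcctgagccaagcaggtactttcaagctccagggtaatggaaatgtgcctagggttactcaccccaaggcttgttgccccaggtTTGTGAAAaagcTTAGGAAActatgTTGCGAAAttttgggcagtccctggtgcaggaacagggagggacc
C1qb held GAGGAA with its first base 30 bases before the start and C1qc held it on the other strand 193 bases before the start; 23.3% of 32851 windows of this length before annotated starts held it. C3 held 3 matches to TTNNGNAA, at 70, 58 and 45 bases before the start, C1qc held 1 at 81 bases, and 36.8% of all windows held at least 1. None of the 5 windows held the letters TTCNNNGAA (interferon-γ activated site, in 7.02% of all windows). GAAANNGAA (core of the interferon-stimulated response element, in 7.13%) was in the C5ar1 window alone and TGANTCA (AP-1 type, in 6.75%) in the C3ar1 window alone. RefSeq starts can differ from the GENCODE gene spans given above. The C1qc, C5ar1 and C3ar1 windows lie partly inside those spans. The TTNNGNAA match of C1qc and the GAAANNGAA match of C5ar1 lie in the parts inside. A match is a match of letters and not a measured site.

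Under IL-10 all 3 C1q chains, C3, C4b and C3ar1 rose against M0. IFN-γ non-phagocytic macrophages also had more C3 and C4b than M0, had more Cfb and had less of both receptors, C3ar1 and C5ar1. Their C1qa and C1qb were above M0 by less than under IL-10. Levels were compared with limma on log2(TPM divided by a library scaling factor, plus 1), one fit per comparison across all genes that reached 1 TPM in 4 or more of its libraries, and a gene was called at a Benjamini-Hochberg adjusted p under 0.05. In IL-10 non-phagocytic macrophages against M0, 6 of 8 members tested were called higher and 0 lower, where 30.7% of all genes tested were called, 15.7% higher and 15.1% lower. In IFN-γ non-phagocytic macrophages against M0, 7 of 9 were called, 5 higher and 2 lower, where 56.5% of all genes were called, 30.1% higher and 26.5% lower. Directly against IL-10, 8 of 9 were called in IFN-γ non-phagocytic macrophages, 3 higher and 5 lower, beside 54.5% of all genes, 29.5% higher and 25.0% lower. C4b in both comparisons with M0, and Cfb in that of IFN-γ, were under 1 TPM in every M0 library and entered the test through the cytokine group alone, so these counts and medians are no support for a change of the members. The median log2 difference of the members tested was 0.87, 0.38 and -0.67 in these 3 comparisons, and that of all genes tested lay between -0.002 and 0.008. The 3 comparisons share groups, so they are not independent of each other.

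The scaling matters for IFN-γ. Without it the median gene sat at -0.29 against M0 and at -0.30 against IL-10, so the changes given here are relative to that shift, and of the genes called the share that was higher fell from 53.2% to 29.8% against M0 and from 54.2% to 28.6% against IL-10. For the members it decided 3 calls of these comparisons. Without scaling C1qb no longer passed the test against M0 (log2 difference 0.05, adjusted p = 0.134), C1qc passed as lower (log2 difference -0.39, adjusted p = 8.31e-06) and C4b no longer passed against IL-10 (log2 difference 0.29, adjusted p = 0.223).

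**Figure D1:**
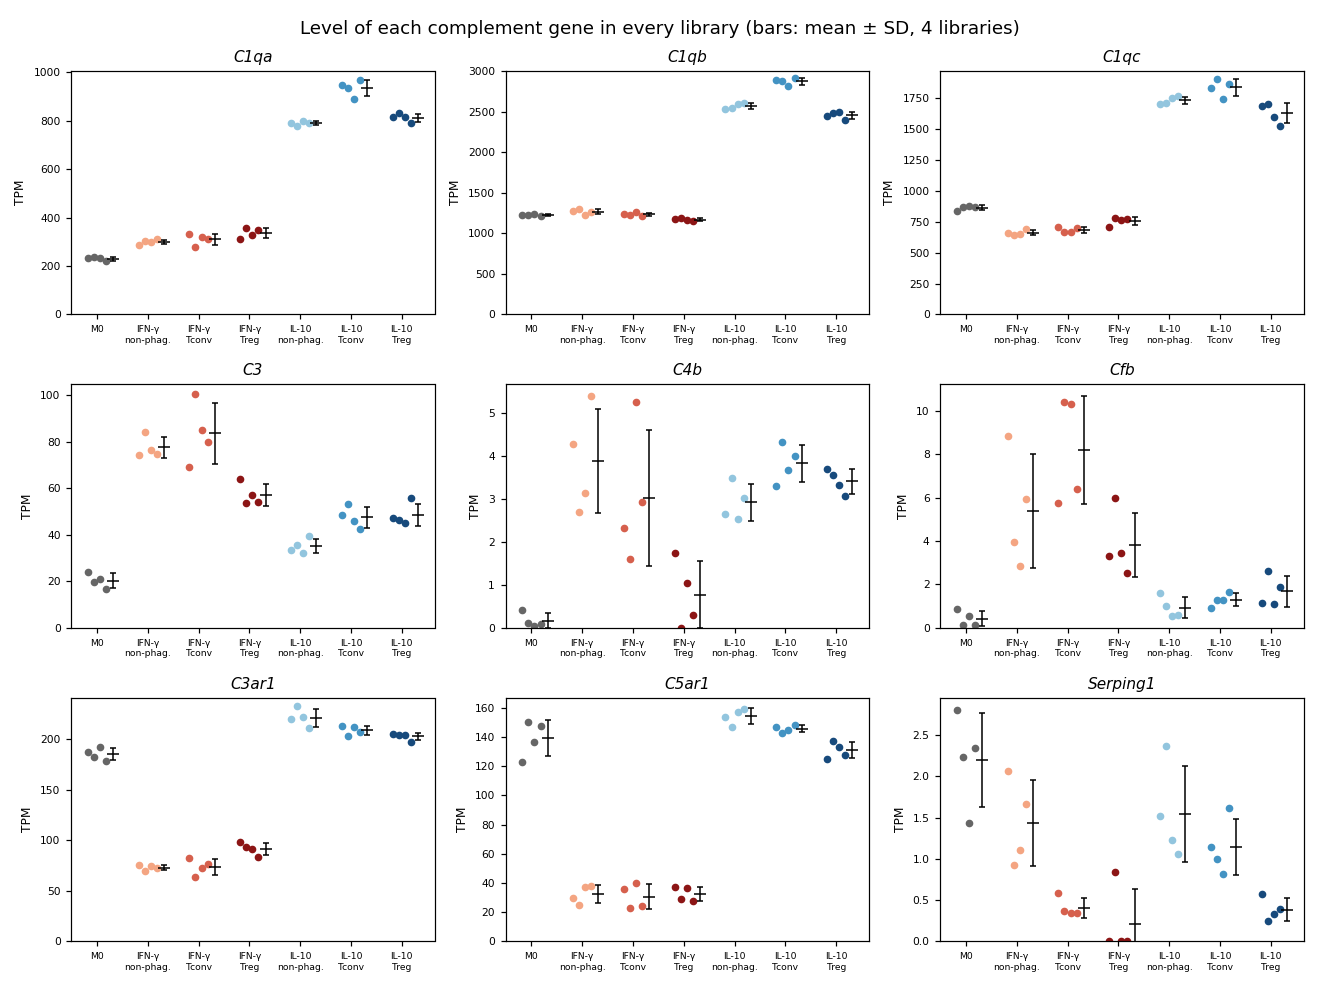
TPM (vertical axis, linear from 0) of each complement gene in each of the 28 libraries (points), by group (horizontal axis), with the mean and SD of the 4 libraries beside them. The 12 IL-10 libraries sit above all others for C1qa, C1qb and C1qc, and the 12 IFN-γ libraries sit below all others for C3ar1 and C5ar1.

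C1q, the recognition molecule, was the most abundant of these products. C1qb, the B chain, read 1226, 1222, 1236 and 1209.9 TPM in M0. In the IL-10 groups it read 2527, 2541, 2592 and 2603 TPM in non-phagocytic, 2889, 2878, 2810.5 and 2911 TPM in Tconv-phagocytic and 2444, 2477, 2499 and 2399 TPM in Treg-phagocytic macrophages. In the IFN-γ groups it read 1275, 1300.0, 1225 and 1268 TPM in non-phagocytic, 1237, 1229, 1263 and 1214 TPM in Tconv-phagocytic and 1174, 1188, 1162 and 1155 TPM in Treg-phagocytic macrophages. All 12 IL-10 libraries were above all 16 others, the IFN-γ non-phagocytic and M0 libraries overlapped, and the IFN-γ Treg-phagocytic libraries were lowest. C1qb was higher in IL-10 non-phagocytic macrophages than in M0 by a limma log2 difference of 1.05 (SE 0.020, adjusted p = 6.71e-10), and in IFN-γ non-phagocytic macrophages by 0.38 (SE 0.029, adjusted p = 4.44e-06), the second resting on the scaling as stated.

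C1qa, the A chain, had the steepest climb of the 3. It read 233, 235, 232 and 219 TPM in M0, 286, 302, 299 and 310.4 TPM in IFN-γ non-phagocytic and 792, 778, 799.9 and 789 TPM in IL-10 non-phagocytic macrophages, and these 3 groups did not overlap. Among engulfing cells it read 331, 279, 318 and 312 TPM with Tconv and 313, 358, 329 and 347 TPM with Treg under IFN-γ. Under IL-10 it read 948, 934, 892 and 969 TPM with Tconv and 814, 831, 814 and 791 TPM with Treg. The order of the means ran from M0 through the 3 IFN-γ groups to the 3 IL-10 groups, with Tconv-phagocytic IL-10 macrophages at the top and clear of the rest. Against M0 the limma log2 difference was 1.76 (SE 0.026, adjusted p = 1.42e-10) for IL-10 and 0.71 (SE 0.038, adjusted p = 4.55e-07) for IFN-γ, and between the cytokines, IFN-γ minus IL-10, it was -1.05 (SE 0.032, adjusted p = 1.04e-08).

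C1qc, the C chain, split from the other chains under IFN-γ. It read 834, 870.0, 880.2 and 867 TPM in M0, 657, 645, 649 and 689.9 TPM in IFN-γ non-phagocytic and 1700.5, 1706, 1750.2 and 1762 TPM in IL-10 non-phagocytic macrophages. It read 703, 664, 664 and 696 TPM in IFN-γ Tconv-phagocytic, 707, 779, 766 and 769 TPM in IFN-γ Treg-phagocytic, 1832, 1903, 1738 and 1866 TPM in IL-10 Tconv-phagocytic and 1682, 1704, 1599 and 1523 TPM in IL-10 Treg-phagocytic macrophages. In TPM every IFN-γ library lay below every M0 library, and every IL-10 library lay above them. The limma log2 difference from M0 was 0.98 (SE 0.027, adjusted p = 6.03e-09) for IL-10, and for IFN-γ -0.056 (95% interval -0.14 to 0.023, adjusted p = 0.203), which did not pass the test.

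The balance between the chains was read within each library, where scaling cancels. C1qa made up 9.93 ± 0.28% (SD, n = 4) of the summed TPM of the 3 chains in M0, 13.4 ± 0.39% in IFN-γ non-phagocytic and 15.5 ± 0.19% in IL-10 non-phagocytic macrophages. C1qc made up 37.2 ± 0.61% in M0, 29.7 ± 0.71% in IFN-γ non-phagocytic and 34 ± 0.13% in IL-10 non-phagocytic macrophages. The sum itself was 2316 ± 26.2 TPM in M0, 2227 ± 41.2 TPM in IFN-γ non-phagocytic and 5085 ± 72.6 TPM in IL-10 non-phagocytic macrophages. In TPM the sum was above all M0 libraries in IL-10 non-phagocytic macrophages and below all of them in IFN-γ non-phagocytic macrophages. The second direction turns with the scaling: the scaled sum was 2032 to 2103 in the M0 libraries and 2416 to 2555 in the IFN-γ non-phagocytic libraries, above all of M0. The C1qa to C1qb ratio was 1.64-fold that of M0 under IL-10 and 1.26-fold under IFN-γ, and the C1qc to C1qb ratio was 0.739 times that of M0 under IFN-γ and 0.956 times under IL-10. These ratios were chosen after the values were seen, so tests on the same values are no support for a change of balance. In 12 of 18 tests of the 2 ratios over the 9 comparisons the groups did not overlap. The share for ratios of other genes was not computed. Each of the 12 had an exact two-sided permutation p of 0.0286, the smallest that 70 arrangements of 4 against 4 libraries can give (0.0429 adjusted over the 18).

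**Figure D2:**
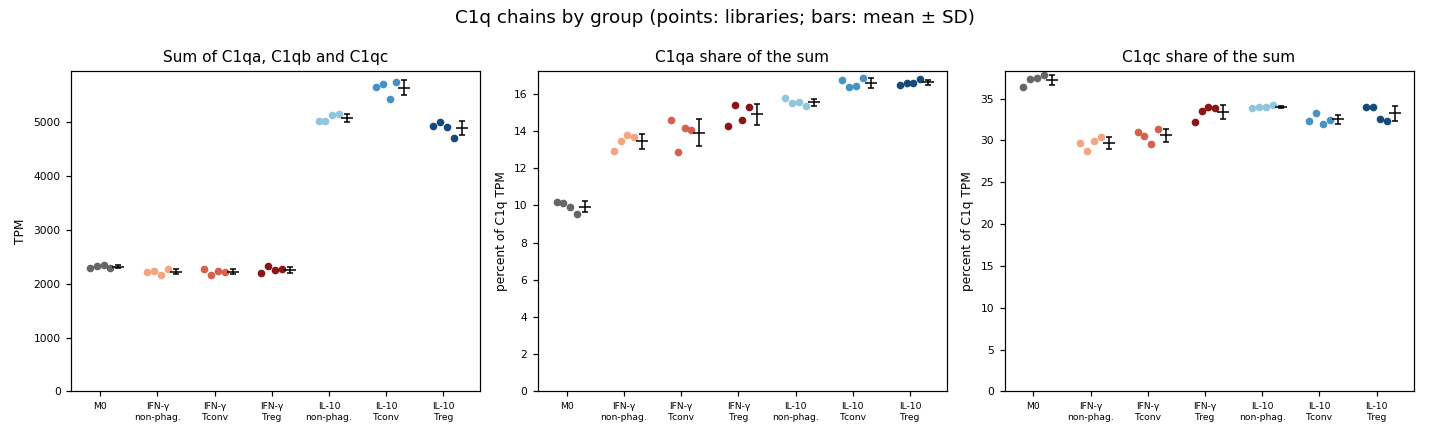
Summed TPM of C1qa, C1qb and C1qc (left), and the percent of that sum from C1qa (middle) and C1qc (right), in each library (points) by group (horizontal axis), with mean and SD of 4 libraries. The C1qa share is lowest in M0, between 9.55% and 10.2%, and at least 12.8% in every other library.

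C3, the component cut by both pathways, was highest under IFN-γ. It read 24.2, 19.6, 20.8 and 16.7 TPM in M0, 74.3, 84.2, 76.5 and 74.8 TPM in IFN-γ non-phagocytic and 33.5, 35.7, 32.2 and 39.5 TPM in IL-10 non-phagocytic macrophages. It read 69.1, 100.4, 85 and 79.7 TPM in IFN-γ Tconv-phagocytic and 63.7, 53.7, 57.1 and 54 TPM in IFN-γ Treg-phagocytic macrophages. Under IL-10 it read 48.3, 53.3, 46 and 42.7 TPM with Tconv and 47.4, 46.2, 45.1 and 55.6 TPM with Treg. Every library with a cytokine was above every M0 library, and the IFN-γ Treg-phagocytic libraries were the lowest of the IFN-γ groups, overlapping the IL-10 Treg-phagocytic ones. The limma log2 difference from M0 was 2.21 (SE 0.10, adjusted p = 1.53e-07) for IFN-γ and 0.75 (SE 0.10, adjusted p = 0.000318) for IL-10, and IFN-γ exceeded IL-10 by 1.46 (SE 0.075, adjusted p = 2.6e-07).

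C4b and Cfb, the next components of the classical and alternative pathways, were near the limit of detection in M0. C4b read 0.42, 0.11, 0.05 and 0.1 TPM in M0, 4.27, 2.7, 3.15 and 5.4 TPM in IFN-γ non-phagocytic and 2.65, 3.49, 2.53 and 3.03 TPM in IL-10 non-phagocytic macrophages. By the step between TPM values this is 3.15 to 23.3 reads per M0 library, 44.7 to 97.9 reads per IFN-γ library and 112 to 217 reads per IL-10 library. C4b was higher with both cytokines, with no overlap with M0, by a limma log2 difference of 2.19 (SE 0.21, adjusted p = 2.1e-05) for IFN-γ and 1.64 (SE 0.13, adjusted p = 9.86e-06) for IL-10, on a scale that understates changes of low genes. Since C4b passed the filter on low values only through the cytokine groups, a difference from M0 was built into its being tested, and fits without one of their libraries could not test it. With no filter, C4b was called at an adjusted p of 0.000148 for IFN-γ and 4.68e-05 for IL-10. C4b in IFN-γ against IL-10 non-phagocytic cells had a difference of 0.55 (SE 0.20, adjusted p = 0.0397). Its libraries overlapped, and it no longer passed the test in 6 of 8 fits that left out 1 library, with adjusted p up to 0.103: those without IFN-γ replicate 1 or 4 or without any of the 4 IL-10 replicates. C4b has a near-identical copy, C4a, at group means of 1.39 to 2.59 TPM, and how the authors' counting split reads between them is uncertain. Cfb read 0.87, 0.15, 0.55 and 0.15 TPM in M0, 8.82, 3.95, 2.87 and 5.92 TPM in IFN-γ non-phagocytic and 1.6, 0.99, 0.54 and 0.6 TPM in IL-10 non-phagocytic macrophages. Cfb in IFN-γ macrophages lay above all M0 and IL-10 non-phagocytic libraries, by a limma log2 difference of 2.28 (SE 0.30, adjusted p = 0.000164) against M0 and 1.89 (SE 0.30, adjusted p = 0.000556) against IL-10. Cfb too passed the filter against M0 only through the IFN-γ group, and with no filter its adjusted p was 0.00106. Cfb was too low to be tested in IL-10 against M0.

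Under IFN-γ the receptors went the other way from C3, C4b and Cfb. C3ar1, the C3a receptor, read 187, 183, 192 and 178 TPM in M0, 75.5, 69.2, 74.8 and 72.9 TPM in IFN-γ non-phagocytic and 220.1, 233, 222 and 211 TPM in IL-10 non-phagocytic macrophages. C5ar1, the C5a receptor, read 123, 150.4, 137 and 148 TPM in M0, 29.7, 25.3, 37.6 and 37.9 TPM in IFN-γ non-phagocytic and 154, 147, 157 and 159.6 TPM in IL-10 non-phagocytic macrophages. For both, the IFN-γ libraries were below all M0 and IL-10 libraries with no overlap, and for C5ar1 the M0 and IL-10 libraries overlapped. Both were lower under IFN-γ than in M0, with a limma log2 difference for C3ar1 of -1.0 (SE 0.046, adjusted p = 1.56e-07) and for C5ar1 of -1.75 (SE 0.13, adjusted p = 3.52e-06). C3ar1 was higher under IL-10 by 0.24 (SE 0.036, adjusted p = 0.000724), and the C5ar1 difference of 0.13 (95% interval -0.011 to 0.27, adjusted p = 0.152) did not pass the test. In mean TPM the drop under IFN-γ was to 0.395 of the M0 level for C3ar1 and to 0.234 for C5ar1.

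Serping1, the C1 inhibitor, was at or under 2.8 TPM in every library. It read 2.8, 2.23, 1.43 and 2.34 TPM in M0, 2.06, 0.92, 1.11 and 1.66 TPM in IFN-γ non-phagocytic and 1.52, 2.37, 1.23 and 1.06 TPM in IL-10 non-phagocytic macrophages, and these 3 groups overlapped. None of the 3 comparisons between them passed the test for Serping1, with limma log2 differences of -0.19 (95% interval -0.67 to 0.29, adjusted p = 0.47), -0.33 (95% interval -0.73 to 0.067, adjusted p = 0.195) and, for IFN-γ minus IL-10, 0.14 (95% interval -0.37 to 0.65, adjusted p = 0.62).

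**Figure D3:**
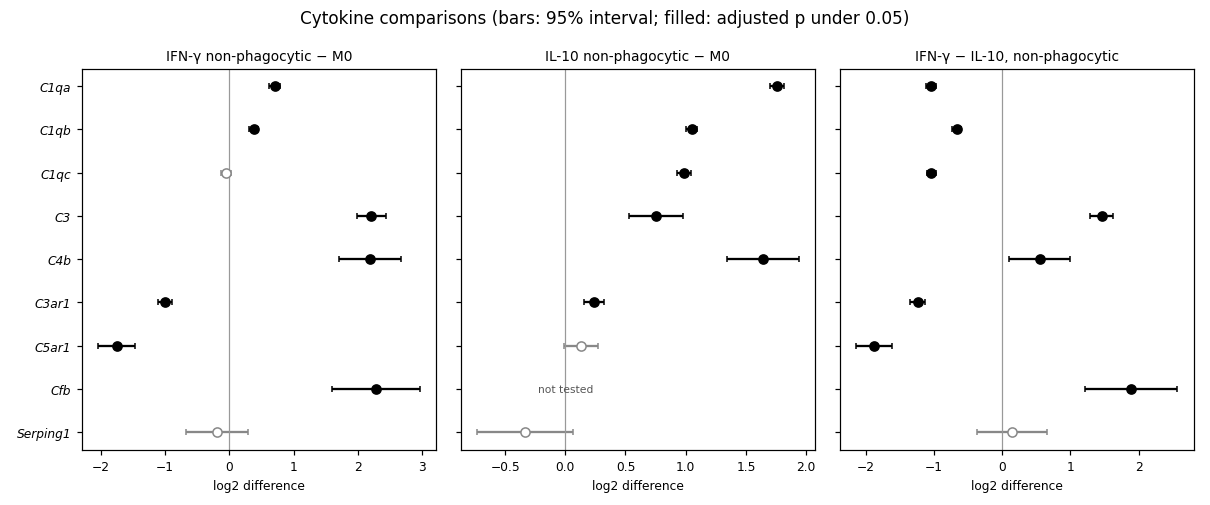
Log2 difference (horizontal axis, log2 of scaled TPM plus 1) of each complement gene (rows) in the 3 comparisons of non-phagocytic macrophages and M0, 4 libraries a group, with 95% intervals and filled points for adjusted p under 0.05. C3ar1 and C5ar1 lie left of 0 under IFN-γ against M0 and against IL-10, and every filled point of IL-10 against M0 lies right of 0.

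Fewer members, and a smaller share of all genes, were called with uptake of dying T cells than with the cytokines. Under IFN-γ, Treg-phagocytic macrophages had more C1qc and C3ar1 and less C3 than either other IFN-γ group. Under IL-10, uptake of Tconv went with more of all 3 C1q chains, and uptake of either T cell with more C3. In IFN-γ Treg-phagocytic against Tconv-phagocytic macrophages 3 of 8 members tested were called, 2 higher and 1 lower, beside 14.6% of all genes tested (6.28% higher, 8.31% lower). Against IFN-γ non-phagocytic macrophages the Treg-phagocytic group had 5 of 8 called, 3 higher and 2 lower, beside 9.46% of all genes (3.46% higher, 6.0% lower). Between IFN-γ Tconv-phagocytic and non-phagocytic macrophages 0 of 8 members were called, beside 0.0% of all genes: limma called 0 of 12134, with 778 at an unadjusted p under 0.05, and a single limma model of all 28 libraries called 117.

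Under IL-10 the Treg-phagocytic against Tconv-phagocytic comparison called 2 of 8 members, both lower, beside 1.73% of all genes (0.699% higher, 1.03% lower). Treg-phagocytic against non-phagocytic IL-10 macrophages had 4 of 9 called, 2 higher and 2 lower, beside 13.2% of all genes (8.34% higher, 4.85% lower). Serping1, 1 of the 2 lower, entered this test through the non-phagocytic group alone, so this count is no support for a change of the members. Tconv-phagocytic against non-phagocytic IL-10 macrophages had 4 of 9 called, all higher, beside 7.43% of all genes (5.4% higher, 2.03% lower). The 3 comparisons of a cytokine share groups. Member medians ran from -0.14 to 0.25 on the log2 scale over these 6 comparisons, and those of all genes from -0.001 to 0.06. Without scaling, the share of called genes that were higher changed from 43.0% to 16.8% and from 36.5% to 17.1% in the Treg comparisons with Tconv and non-phagocytic macrophages under IFN-γ, and from 63.2% to 26.1% and from 72.7% to 24.2% in the Treg and Tconv comparisons with non-phagocytic macrophages under IL-10.

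Of the C1q chains, all 3 were highest after Tconv uptake under IL-10. In IL-10 macrophages that took up Tconv, C1qa exceeded non-phagocytic cells by a limma log2 difference of 0.33 (SE 0.027, adjusted p = 0.000149), C1qb by 0.25 (SE 0.020, adjusted p = 0.000121) and C1qc by 0.17 (SE 0.029, adjusted p = 0.00822). The C1qa and C1qb libraries of these groups did not overlap, whereas those of C1qc did, and C1qc no longer passed without scaling (log2 difference 0.085, adjusted p = 0.0954). Treg uptake under IL-10 was below Tconv uptake, with a log2 difference for C1qa of -0.20 (SE 0.029, adjusted p = 0.00784) and for C1qb of -0.22 (SE 0.021, adjusted p = 0.000357), with no overlap in TPM. C1qc, at -0.17 (95% interval -0.26 to -0.080, adjusted p = 0.081) in the same comparison, did not pass the test although its libraries did not overlap. Against non-phagocytic IL-10 cells, Treg uptake gave C1qa a difference of 0.13 (SE 0.022, adjusted p = 0.00553), with overlapping TPM and no call without scaling (0.04, adjusted p = 0.232). Stromal markers moved alongside, with 8 of the 8 tested lower in IL-10 Treg-phagocytic than Tconv-phagocytic cells and 6 of 8 higher in Tconv-phagocytic than non-phagocytic cells, summing to 32.6 to 36.2, 171 to 186 and 98.7 to 103 TPM in the Treg-phagocytic, Tconv-phagocytic and non-phagocytic groups. Their part in the C1q result was not tested.

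Under IFN-γ, C1qc was highest in the Treg-phagocytic group. C1qc exceeded Tconv-phagocytic cells by a limma log2 difference of 0.27 (SE 0.056, adjusted p = 0.0104) and non-phagocytic cells by 0.27 (SE 0.053, adjusted p = 0.0115), and its TPM overlapped with neither group. C1qa was 0.24 (SE 0.063, adjusted p = 0.0398) above non-phagocytic cells, a call lost in 7 of 8 fits that left out 1 library (adjusted p up to 0.103), all but the one without the Ax647-1 Treg library, and also without scaling (0.17, adjusted p = 0.0935). Against Tconv-phagocytic cells C1qa differed by 0.24 (95% interval 0.076 to 0.41, adjusted p = 0.0576) and was not called. C1qb did not pass against either, at 0.046 (95% interval -0.035 to 0.13, adjusted p = 0.453) and -0.038 (95% interval -0.12 to 0.044, adjusted p = 0.579). Its TPM was lower in all 4 Treg-phagocytic libraries than in both other IFN-γ groups, so its direction turns with the scaling against Tconv. Within libraries the C1qc to C1qb ratio was 1.17-fold that of Tconv-phagocytic and 1.24-fold that of non-phagocytic cells, with no overlap in either. This ratio was chosen after the values were seen. Macrophage markers moved alongside, with 7 of 10 called higher in the Treg-phagocytic group against each of the other IFN-γ groups and 1 lower against Tconv-phagocytic cells, at a median log2 difference of 0.29 against Tconv-phagocytic and 0.23 against non-phagocytic cells. They summed to 32261 to 32801, 26331 to 29337 and 27766 to 28542 TPM in the Treg-phagocytic, Tconv-phagocytic and non-phagocytic libraries, none of the 10 was at 0 in any of these groups, and their part in the C1qc result was not tested. The call for C1qc against Tconv-phagocytic cells was lost without scaling (0.15, adjusted p = 0.0599), and the one for C3ar1 as well (0.31, adjusted p = 0.0522).

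The change from Tconv to Treg uptake differed between the cytokines for C1q. The limma test of the difference, IFN-γ minus IL-10, gave 0.45 (SE 0.082, adjusted p = 0.00165) for C1qa, 0.27 (SE 0.035, adjusted p = 0.000123) for C1qb and 0.44 (SE 0.070, adjusted p = 0.0005) for C1qc. Together with C3 and C3ar1 these were the 5 of 8 members called, beside 14.1% of all genes. For Treg uptake against non-phagocytic cells 4 of 9 members differed between cytokines, beside 9.72% of all genes: C1qc by 0.27 (SE 0.064, adjusted p = 0.0121), C3ar1 by 0.44 (SE 0.065, adjusted p = 0.000346), C3 by -0.89 (SE 0.11, adjusted p = 6.26e-05) and C4b by -1.82 (SE 0.40, adjusted p = 0.00717). For Tconv uptake against non-phagocytic cells 2 of 9 differed, beside 1.86% of all genes: C1qa by -0.33 (SE 0.065, adjusted p = 0.0161) and C1qb by -0.33 (SE 0.036, adjusted p = 0.000152). Without scaling the C1qa difference for Tconv uptake did not pass (-0.20, adjusted p = 0.148), and of all genes called for that difference 64.5% instead of 12.8% were higher under IFN-γ. For the difference in Treg against Tconv uptake that share was 19.2% without scaling and 42.9% with it.

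**Figure D4:**
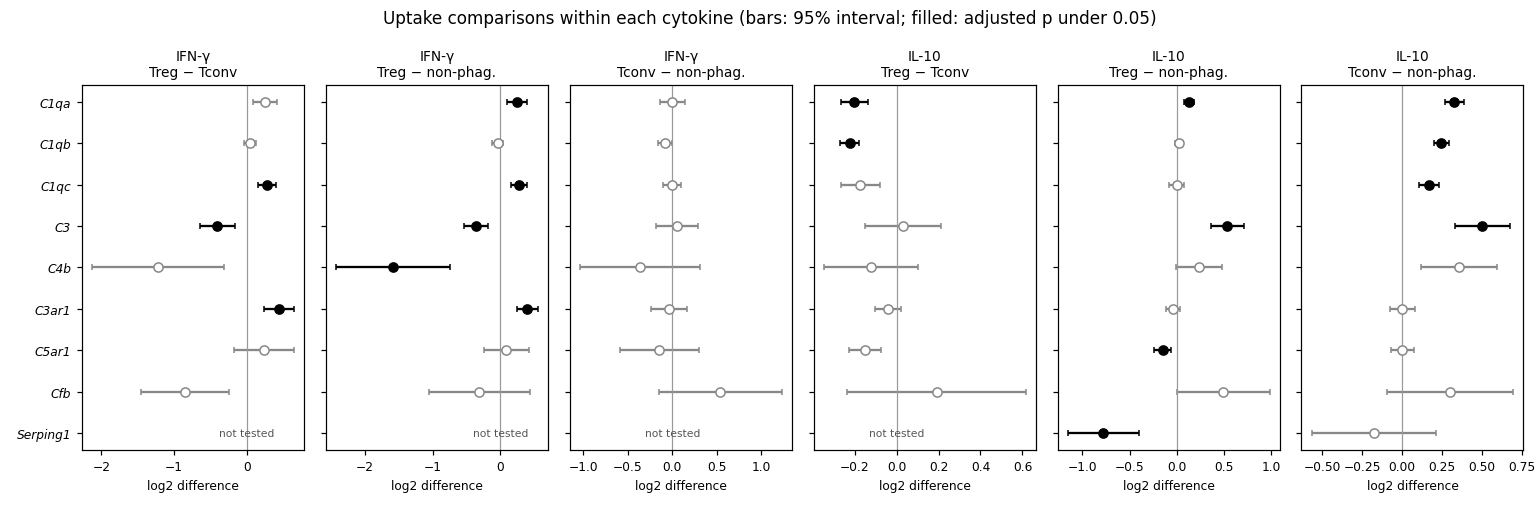
Log2 difference (horizontal axes, log2 of scaled TPM plus 1, each panel with its own range) of each complement gene (rows) in the 6 uptake comparisons, 4 libraries a group, with 95% intervals and filled points for adjusted p under 0.05. Under IFN-γ the Treg panels have C1qc and C3ar1 right of 0 and C3 left of 0, and the Tconv against non-phagocytic panel has no filled point.

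C3 moved in opposite directions with Treg uptake under the 2 cytokines. Under IFN-γ it was lower in Treg-phagocytic cells than in both other groups, with a limma log2 difference of -0.36 (SE 0.078, adjusted p = 0.0188) from non-phagocytic cells and of -0.41 (SE 0.11, adjusted p = 0.0325) from Tconv-phagocytic cells, and no overlap of libraries in either. Under IL-10 it was higher than in non-phagocytic cells, by 0.54 (SE 0.079, adjusted p = 0.00218) after Treg uptake and 0.50 (SE 0.078, adjusted p = 0.00486) after Tconv uptake, and the IL-10 Treg and Tconv groups differed by 0.032 (95% interval -0.15 to 0.21, adjusted p = 0.909). T cell markers were higher in the same comparisons with non-phagocytic IL-10 cells, in 12 of 12 genes after Treg uptake and in 6 of 12 after Tconv uptake, and their part in the C3 result was not tested. The difference between cytokines for Treg uptake against non-phagocytic cells was called in all 16 fits that left out 1 library. The call against IFN-γ Tconv-phagocytic cells was lost in 6 of 8 such fits, with adjusted p up to 0.0824: those without the BV421-2, Ax647-1 or Ax647-2 Tconv library or the Ax647-2, BV421-1 or BV421-2 Treg library. It was lost too without a filter on low values (adjusted p = 0.0561), both IFN-γ calls were lost with a variance weight per group (adjusted p = 0.155 against Tconv-phagocytic and 0.271 against non-phagocytic cells), and the call against IFN-γ non-phagocytic cells was lost without non-phagocytic replicate 2 (adjusted p = 0.0603). The test of the cytokine difference for Treg against Tconv uptake, -0.44 (SE 0.14, adjusted p = 0.0474), was lost in 13 of 16 such fits and held without IFN-γ Tconv BV421-1, IFN-γ Treg Ax647-1 or IL-10 Tconv BV421-2.

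C4b and Cfb after uptake were read from few molecules. C4b read 1.75, 0, 1.05 and 0.3 TPM in IFN-γ Treg-phagocytic, 2.33, 1.6, 5.26 and 2.94 TPM in IFN-γ Tconv-phagocytic and 4.27, 2.7, 3.15 and 5.4 TPM in IFN-γ non-phagocytic macrophages, the first of these being 0 to 28.8 reads a library. C4b was lower in Treg-phagocytic than non-phagocytic cells, with a log2 difference of -1.59 (SE 0.38, adjusted p = 0.0276) and no overlap, and the call was lost in 4 of 8 fits that left out 1 library (without non-phagocytic replicate 1, 3 or 4 or the BV421-2 Treg library, adjusted p up to 0.085) and with a pseudocount of 0.1 (log2 difference -2.84, adjusted p = 0.0764). The call was lost too with no filter on low values (limma adjusted p = 0.0643). Against Tconv-phagocytic cells C4b differed by -1.22 (95% interval -2.13 to -0.32, adjusted p = 0.0745) and overlapped. Under IL-10, C4b kept to between 2.53 and 4.32 TPM in all 12 libraries, and no uptake comparison of it passed. Cfb read 5.75, 10.4, 10.3 and 6.37 TPM in IFN-γ Tconv-phagocytic and 3.29, 5.97, 3.44 and 2.55 TPM in IFN-γ Treg-phagocytic macrophages, overlapping in 1 library of each, at -0.85 (95% interval -1.46 to -0.25, adjusted p = 0.0634), which did not pass. In the IL-10 uptake groups Cfb stayed between 0.93 and 2.6 TPM. The 6 IFN-γ response markers summed to 207 to 298 TPM in IFN-γ Treg-phagocytic, 521 to 752 TPM in Tconv-phagocytic and 555 to 653 TPM in non-phagocytic macrophages. Of the 6, 4 were called lower in Treg-phagocytic than Tconv-phagocytic cells, 3 were called lower than in non-phagocytic cells and 0 were called higher. Their sum was low in the group in which C3 and C4b were low, and their part was not tested.

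The C3a receptor gene rose with Treg uptake under IFN-γ. C3ar1 read 97.9, 93.6, 91.7 and 83.6 TPM in Treg-phagocytic, 82.6, 63.9, 72.2 and 77.1 TPM in Tconv-phagocytic and 75.5, 69.2, 74.8 and 72.9 TPM in non-phagocytic macrophages, and the Treg libraries lay above both other groups. It was higher by a limma log2 difference of 0.43 (SE 0.091, adjusted p = 0.0115) against Tconv-phagocytic and 0.40 (SE 0.068, adjusted p = 0.00587) against non-phagocytic cells, the second called in all 8 fits that left out 1 library. The macrophage markers were higher in these same comparisons, in 7 of 10 genes each as given for C1qc, and their part in the C3ar1 result was not tested. All of these IFN-γ libraries remained under 98 TPM, below the lowest M0 library at 178 TPM. Under IL-10, C3ar1 read 206, 204, 204 and 198 TPM with Treg, 213, 203, 212 and 207 TPM with Tconv and differed from non-phagocytic cells by -0.038 (95% interval -0.11 to 0.038, adjusted p = 0.527) and 0.002 (95% interval -0.074 to 0.078, adjusted p = 0.986), neither of which passed. The IL-10 Treg-phagocytic libraries were nevertheless all below the non-phagocytic ones in TPM, and without scaling C3ar1 was called lower there (log2 difference -0.13, adjusted p = 0.03). The cytokine difference for Treg against Tconv uptake was 0.47 (SE 0.091, adjusted p = 0.00231).

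C5ar1 did not pass in the IFN-γ uptake comparisons in which C3ar1 was called. It read 37, 29.2, 36.7 and 27.9 TPM in IFN-γ Treg-phagocytic and 35.9, 23.1, 40 and 24.2 TPM in IFN-γ Tconv-phagocytic macrophages, all groups under IFN-γ overlapped, and the difference of 0.23 (95% interval -0.18 to 0.64, adjusted p = 0.45) did not pass. Under IL-10 it read 125, 137, 133 and 128 TPM with Treg and 147, 143, 145 and 148 TPM with Tconv. C5ar1 was lower after Treg uptake than in IL-10 non-phagocytic cells, with a log2 difference of -0.15 (SE 0.039, adjusted p = 0.0329) and no overlap, but the call was lost in 6 of 8 fits that left out 1 library, with adjusted p up to 0.0937: all but those without non-phagocytic replicate 2 or the Ax647-2 Treg library.

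Serping1 was lower with Treg uptake under IL-10, in a few reads, and stromal transcripts were lower too. It read 0.57, 0.25, 0.33 and 0.39 TPM in IL-10 Treg-phagocytic and 1.14, 1, 0.82 and 1.62 TPM in IL-10 Tconv-phagocytic macrophages, or 4 to 6.75 and 15 to 35 reads a library. The Treg libraries lay below those of both other IL-10 groups, and against non-phagocytic cells the limma log2 difference was -0.78 (SE 0.17, adjusted p = 0.0155). Serping1 was under 1 TPM in all 4 Treg libraries and passed the filter only through the non-phagocytic group, so that a difference was built into its being tested; with no filter its adjusted p was 0.0276. The stromal list fell in the same comparison in 7 of the 7 genes tested. Among them Col1a1, a collagen chain of fibroblasts, was at 6.09 ± 0.63 TPM in IL-10 Treg-phagocytic and 18.5 ± 1.04 TPM in IL-10 non-phagocytic macrophages (SD, n = 4). After Tconv uptake under IL-10 the stromal sum averaged 177 TPM, beside 101 TPM in non-phagocytic cells. Serping1 was not called there (limma log2 difference -0.18, adjusted p = 0.613). IFN-γ non-phagocytic macrophages had a stromal mean of 12.5 TPM and a Serping1 mean of 1.438 TPM, beside 1.545 TPM in IL-10 non-phagocytic ones. In M0 these means were 148 and 2.2 TPM. With IFN-γ uptake both were low, at 7.87 and 0.41 TPM (Tconv) and 6.05 and 0.21 TPM (Treg). The part of stromal RNA in the Serping1 result was not tested. Under IFN-γ Serping1 read 0.59, 0.37, 0.34 and 0.34 TPM with Tconv and 0, 0.84, 0 and 0 TPM with Treg, at most 2.97 reads in any of these 8 libraries, and was too low to be tested or to give a fold.

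Beyond these 9 genes, 44 other complement genes were listed by pathway, of which 8 were at 0 in every library, 25 had a mean under 1 TPM in every group and 12 reached 5 TPM in some group. Against M0, IFN-γ non-phagocytic macrophages had 10 of 18 tested called, 2 higher and 8 lower, beside 56.5% of all genes, and IL-10 non-phagocytic macrophages had 9 of 17, 4 higher and 5 lower, beside 30.7%. IFN-γ against IL-10 had 11 of 18, 4 higher and 7 lower, beside 54.5% of all genes. The list medians were -0.09, -0.043 and 0.10 on the log2 scale, beside all-gene medians of 0.002, -0.002 and 0.008. Cd55 was at 0.2 to 0.29 TPM in M0, 0.32 to 0.5 TPM in IL-10 non-phagocytic and 1.04 to 3.21 TPM in IFN-γ non-phagocytic macrophages. It entered both tests of IFN-γ through the IFN-γ group alone, so these counts and medians are no support for a change of the list. Under IFN-γ, 3 of 17 were called for Treg against Tconv uptake (14.6% of all genes), 2 of 16 for Treg against non-phagocytic (9.46%) and 0 of 18 for Tconv against non-phagocytic cells (0.0%). Under IL-10 the same comparisons had 0 of 17 (1.73%), 5 of 18 (13.2%) and 3 of 16 (7.43%). For Treg against non-phagocytic IL-10 cells Cd55, at 1.28 to 2.08 TPM with Treg, entered the test through the Treg group alone.

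In the alternative pathway, properdin (Cfp), which stabilises the C3 convertase, was at 60 ± 3.29 TPM in M0, 108 ± 12.7 TPM in IFN-γ non-phagocytic and 47.5 ± 1.7 TPM in IL-10 non-phagocytic macrophages (SD, n = 4). Cfp was higher under IFN-γ than M0 by a limma log2 difference of 1.16 (SE 0.083, adjusted p = 2.7e-06) and lower under IL-10, with a difference of -0.35 (SE 0.044, adjusted p = 0.000245). It rose with uptake as well, by 0.54 (SE 0.043, adjusted p = 6.38e-05) with Treg and 0.47 (SE 0.035, adjusted p = 7.38e-05) with Tconv under IL-10, and by 0.34 (SE 0.090, adjusted p = 0.0445) with Treg under IFN-γ. C1ra, a protease that C1q carries, rose under IL-10 like C1q itself, from 8.43 ± 0.71 to 17 ± 1.54 TPM, by 0.91 (SE 0.077, adjusted p = 1.39e-05).

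Of the receptors and binding proteins, Itgam, the alpha chain of complement receptor 3, was at 137 ± 3.26 TPM in M0, 76.7 ± 1.67 TPM in IFN-γ non-phagocytic and 261 ± 2.83 TPM in IL-10 non-phagocytic macrophages. Itgam was lower under IFN-γ, with a log2 difference of -0.50 (SE 0.042, adjusted p = 7.6e-06), and higher under IL-10, with 0.91 (SE 0.024, adjusted p = 5.55e-09), as was C3ar1. With Treg uptake it rose under IFN-γ, by 0.32 (SE 0.065, adjusted p = 0.0151) against non-phagocytic cells, and was lower under IL-10, at -0.22 (SE 0.028, adjusted p = 0.00116), and the test of that difference gave 0.53 (SE 0.057, adjusted p = 1.96e-05). Lrp1, a scavenger receptor that can bind C1q, was at 291 ± 12.1 TPM in M0 and 113 ± 11.2 TPM in IFN-γ non-phagocytic macrophages, a limma log2 difference of -1.04 (SE 0.069, adjusted p = 1.66e-06). Itgax, the alpha chain of complement receptor 4, was below M0 under both cytokines and lower again with Tconv uptake under IL-10, at -0.41 (SE 0.067, adjusted p = 0.00579). Fcna, a ficolin of the lectin pathway, rose under IL-10 with Treg uptake by 0.96 (SE 0.11, adjusted p = 0.000638) and with Tconv uptake by 0.73 (SE 0.12, adjusted p = 0.00683).

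**Figure D5:**
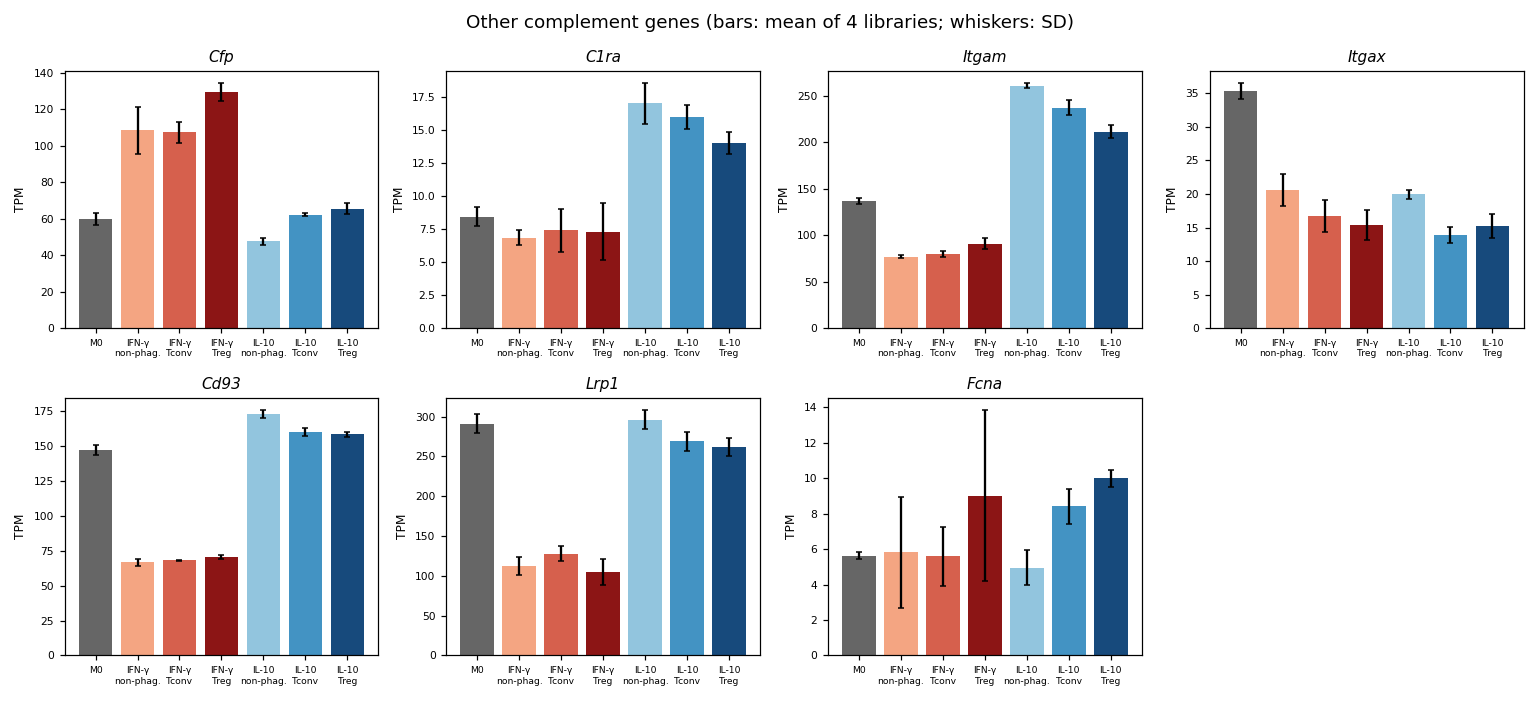
Mean TPM (vertical axes, linear from 0; whiskers are SD, n = 4) of 7 other complement genes in the 7 groups (horizontal axis). Cfp is highest in the 3 IFN-γ groups, and C1ra and Itgam are highest in the 3 IL-10 groups.

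The genes whose 7 group means ran closest to those of C1qa were Apoc2, an apolipoprotein (root mean square difference 0.10 on the centred log2 scale), March1, a membrane ubiquitin ligase (0.19), and Fcgr2b, the inhibitory Fcγ receptor (0.20), out of 8647 genes compared. Apoc2 averaged 37.9 TPM in M0, 40.8 TPM in IFN-γ non-phagocytic and 117 TPM in IL-10 non-phagocytic macrophages. Nearest to Cfb were Il27, a cytokine subunit (0.18), St14, a membrane protease (0.19), and Slirp, a mitochondrial RNA-binding protein (0.19). Il27 averaged 2.23 TPM in M0, 11.96 TPM in IFN-γ non-phagocytic and 3.08 TPM in IL-10 non-phagocytic macrophages. These are likenesses over 7 group means from the same libraries and carry no test.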

How the data were processed

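Poly(A) RNA of 28 libraries (7 groups of 4) was sequenced from strand-specific libraries, per the labels' protocols. STAR, RSEM and the mm10 build are named in the submitters' processing notes, and the annotation release is not given in the sources used here. The deposited values are TPM per Ensembl gene, 2 decimals, per the file headers. No read counts are in the files, so relative depth was taken from TPM steps of single-transcript genes of 500 to 2000 nt (GENCODE vM21, GRCm38, effective length 225 nt shorter): between 88.8% and 91.9% of low values lay within 0.15 of a whole read. Read numbers assume the longest transcript and are estimates.

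Of the IDs, 55141 matched a symbol and 346 did not. Each comparison was fitted with limma 3.58.1 (R 4.3.3; lmFit, eBayes with trend) on log2(TPM/scaling factor + 1), with only the libraries compared, and was tested on simulated data. The scaling factor is an unweighted trimmed mean of log2 ratios (30% of ratios and 5% of levels trimmed) over 9723 genes. Tested genes reached 1 TPM in 4 or more libraries, and adjusted p-values under 0.05 (Benjamini-Hochberg) were called.

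Members, gene lists and tests were chosen with earlier results of these data known. Named genes were the 9 members, up to 3 other complement genes per direction and comparison with the largest called change and at least 5 TPM in the higher group, and the 3 genes nearest in pattern to C1qa and to Cfb. An item that this rule names is not reported here. For all 8 Treg-phagocytic libraries the title and the library name give different dyes, and libraries are named by title. Of 378 library pairs 0 were identical. Alternatives were other scalings, pseudocounts, filters, variance weights, 1 model of all libraries, dye terms, replicate blocks and leaving out each library.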

Additional observations from a re-analysis of the deposited data

Results flagged for a closer look

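In 3 of the 63 sets of 4 values (9 genes in 7 groups), 1 library stood apart from the other 3 by Dixon's criterion, which chance alone meets in about 1 in 20. C4b in M0 had a highest value of 0.42 TPM where the lowest was 0.05. Serping1 in IFN-γ Tconv-phagocytic macrophages had a highest value of 0.59 TPM where the lowest was 0.34. Serping1 in IFN-γ Treg-phagocytic macrophages had 0.84 TPM in 1 library and was listed at 0 in the other 3. All 3 sets lie at the lowest levels read for these genes.

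The effect of uptake differed between IFN-γ and IL-10 for several members (limma, adjusted p under 0.05). For Treg against Tconv uptake the IFN-γ minus IL-10 differences were 0.445 for C1qa, 0.269 for C1qb, 0.443 for C1qc, -0.44 for C3 and 0.475 for C3ar1. For Treg uptake against non-phagocytic macrophages they were 0.272 for C1qc, -0.894 for C3, -1.821 for C4b and 0.437 for C3ar1. For Tconv uptake against non-phagocytic macrophages they were -0.327 for C1qa and -0.33 for C1qb.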

How the results depend on the processing

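Of 235 recomputed counts of called members, 215 stayed within 1.5 times the reported count and 20 did not. For single members 1840 recomputed values kept their side of the threshold, of which 38 changed sign, all of them differences that were not called; 84 lost a call, 26 gained one and 0 reversed while called. One model of all 28 libraries called 6 members for IFN-γ Treg against Tconv and 2 for IL-10 Treg against non-phagocytic; it called 32.6% instead of 14.6% of all genes in the former, 28.4% instead of 9.46% for IFN-γ Treg against non-phagocytic, and fewer under IL-10 (4.77%, 1.89%, 0.785% and 13.1% for Treg and Tconv against non-phagocytic, Treg against Tconv, and non-phagocytic against M0). With libraries of 1 dye by title (BV421 or Ax647), 2 against 2, 0 members were called in either Treg against Tconv comparison, while the log2 differences were 0.29 and 0.25 for C1qc, 0.39 and 0.48 for C3ar1 and -0.46 and -0.36 for C3 under IFN-γ, and -0.23 and -0.17 for C1qa and -0.24 and -0.21 for C1qb under IL-10 (BV421, then Ax647). Without a filter IFN-γ Treg against non-phagocytic had 3 calls. Variance weights gave 4 for IL-10 Treg against Tconv. Without scaling the Tconv difference between cytokines had 1 call, of 121 instead of 243 genes. The cause was not tested.

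Same-numbered libraries did not deviate together (correlations between -0.067 and 0.085), so numbers are not taken as pairs. A replicate block by file numbers gave 3 calls for IFN-γ Treg against non-phagocytic, and a replicate block by library names gave 1 for IL-10 Treg against Tconv.

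Leaving out 1 library, calls ranged from 2 to 5 for IFN-γ Treg against Tconv, 3 to 5 for IFN-γ Treg and 2 to 4 for IL-10 Treg against non-phagocytic, 2 to 3 for IL-10 Treg against Tconv, 5 to 7 for IFN-γ and 5 to 6 for IL-10 against M0, 7 to 8 for IFN-γ against IL-10, and 4 to 6 and 2 to 3 for the cytokine differences in Treg against Tconv and in Tconv uptake. They stayed at 4 for IL-10 Tconv against non-phagocytic and for the difference in Treg uptake, and at 0 for IFN-γ Tconv against non-phagocytic. The differences in C1q ratios kept their sign in all 144 values with 1 library left out. In the 12 of 18 tests without overlap that outcome was fixed in advance, so it is no support for a change of balance. Depth limits C4b, Cfb and Serping1 most, under IFN-γ.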
